A study of Mus musculus with 18 samples.

Results

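The unperturbed transcriptome of mouse dermal papilla was described from 4 RNA-seq libraries, chosen because their labels name no adrenalectomy and no deletion of the glucocorticoid receptor. They were 4 of the 18 libraries of the series and 4 of its 8 dermal papilla libraries. A pair, Sham 1 and Sham 2 (group Sham_DP), came from wild type female C57BL/6 mice after a sham operation. The other pair, Control 1 and Control 2 (group Control_DP), came from wild type female mice of mixed 129/C57BL/6 strain that had received intraperitoneal tamoxifen for 6 days. The 2 groups therefore differ in strain, tamoxifen and surgery, and these cannot be told apart. What follows describes where the 4 libraries agreed. The cells had been purified by flow cytometry as dermal papilla cells, and the gate and the ages of the mice are not given in the sources used here. The labels do not say whether libraries of a group came from separate mice, so p-values measure only the spread between libraries, which may be technical. In the main fit that spread was estimated over all 8 dermal papilla libraries, which include adrenalectomy and receptor deletion.

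The dermal papilla is a small cluster of specialised fibroblasts at the base of each hair follicle. It signals to the epithelial cells around it through secreted WNT activators and inhibitors, BMP and FGF ligands and R-spondins, and its size and signals set when and how large a hair grows. It keeps a mesenchymal matrix and, unlike most fibroblasts, expresses genes such as Sox2, Corin, Alpl, Vcan, Crabp1 and Lef1 that are used to recognise it.

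The libraries held 11329227 to 13264002 estimated read counts, of which 89.6% to 93.6% lay in protein-coding genes. Levels of 1 gene across libraries are given as CPM (counts scaled to a common library total) in the order Sham 1, Sham 2, Control 1, Control 2. Levels of different genes are ranked as TPM, which also divides by transcript length, except where a limit or a sum in CPM is stated. Such limits and sums depend on transcript length. A level of 10 CPM was about 108 to 127 reads, where counting alone gives a coefficient of variation of 8.88% to 9.64%. Chromosome Y genes held 0.0367% of counts in Sham 1, 0.0394% in Sham 2, 0.00679% in Control 1 and 0.00673% in Control 2. Of 5 sex-check genes (Xist and Y-linked genes), 3, 4, 2 and 2 reached 1 CPM in these libraries. The mice are given as female, and the source of the Y-linked reads was not tested. In log2 CPM over 23463 genes the Pearson correlation was 0.962 between the 2 Control libraries, 0.881 between the 2 Sham libraries and 0.825 to 0.922 across groups, as a description of libraries that share most of their abundant genes. Sham 2 stood apart: 32511 genes had at least 1 read in it, against 24517 to 27093 in the other 3, and it held the lowest value for 3906 of the 8949 genes with at least 10 CPM in each library.

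The most abundant protein-coding gene, after ribosomal protein and mitochondrially encoded genes were set aside, was Igfbp3, which encodes a secreted carrier of insulin-like growth factors (chromosome 11, 7206086 to 7213923, minus strand, GRCm38). Its level was 17889.5 CPM in Sham 1, 11087 in Sham 2, 19684 in Control 1 and 28122 in Control 2, with a median of 11245 TPM. Apod, a lipocalin that carries small lipids, followed at a median of 6654 TPM. Next came Dcn, encoding the collagen-binding proteoglycan decorin, at 8730.1, 9031, 6704 and 6323 CPM. Decorin was the most abundant of these genes to stay within 2-fold over the 4 libraries, with its highest value 1.43 times its lowest. Of all genes with at least 10 CPM in each library, 65.8% had their highest library at most 2 times their lowest. Of the 20 most abundant genes, 6 did. The other 5 were Actb (cytoplasmic actin, ratio 1.62), Vim (the mesenchymal intermediate filament vimentin, 1.75), Gsn (the actin-severing protein gelsolin, 1.45), Eif1 (translation initiation, 1.74) and Ftl1 (ferritin light chain, 1.66). Vimentin, for example, was at 3133, 2243, 3404 and 3921 CPM, the lowest value being that of Sham 2.

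The remaining 14 were further apart. Crabp1, a retinoic acid binding protein and a marker of the papilla, was at 2747, 1517, 1854 and 3459.5 CPM, and the groups overlapped, since both had 1 higher and 1 lower library. Matrix genes Sparc and Col3a1 had ratios of 2.34 and 2.94, each with its lowest value in Control 2. Fos, an immediate early transcription factor, was at 7558, 5998, 1494 and 1981 CPM and did not overlap between groups. Lars2, which encodes a mitochondrial leucyl-tRNA synthetase, was at 3468, 3488, 24529.7 and 32221 CPM, a ratio of 9.29 (log2 difference 3.03, adjusted p = 0.0142 in edgeR, a call lost without Sham 2). Mitochondrial ribosomal RNAs were also higher in both Control libraries, with mt-Rnr1 at 333, 321, 2289 and 2487 CPM. The larger one, mt-Rnr2, was at 3969, 3019.7, 13112 and 12046 CPM. A single transcript annotated for nonsense-mediated decay, Lars2-209, held 90.8, 91.0, 93.2 and 93.5 percent of its reads, and its part in the difference was not tested.

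**Figure D1:**
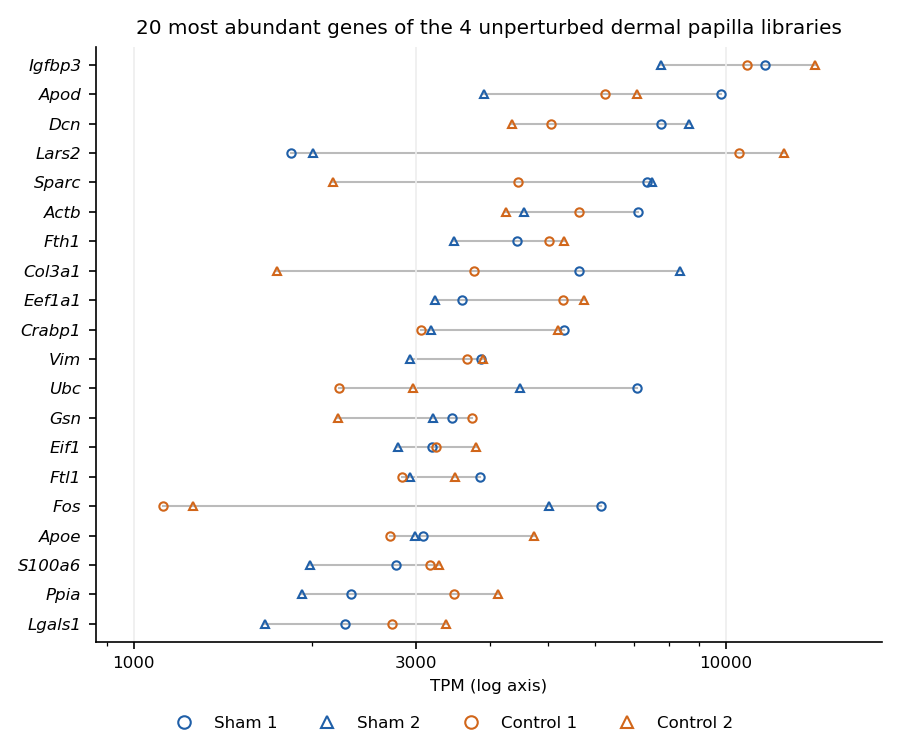
TPM (log axis) of the 20 most abundant protein-coding genes in each of the 4 libraries, ordered by median, with 1 open symbol per library and a grey line from the lowest to the highest. Igfbp3 leads with a median of 11245 TPM, Dcn and Vim are among the genes at most 2-fold apart in CPM, and Lars2 and Fos are split between the Sham and the Control libraries.

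Broad gene groups framed these levels. Each count within 2-fold below stands beside 65.8% over all genes with at least 10 CPM in each library. The 37 mitochondrially encoded genes summed to 24363, 17767, 37886 and 32115 CPM. Of the 16 with at least 10 CPM in each library, 9 stayed within 2-fold, among them mt-Co1 (cytochrome oxidase subunit, 5061, 3385, 5579.5 and 4152 CPM) and mt-Nd1 (complex I subunit, 2019.5, 1505, 1830.5 and 1544 CPM). Collagens summed to 26038, 29932, 23099 and 14760.4 CPM, and 10 of 23 stayed within 2-fold. The fibril collagen Col1a1 did not (4181, 4988, 3292 and 1008 CPM, lowest in Control 2), while the microfibril and basement membrane chains Col6a1 (1402, 1113, 1307 and 1165) and Col4a1 (693, 607, 744 and 663) did. Of 50 other matrix genes, 28 stayed within 2-fold, including Serpinf1, which encodes the anti-angiogenic serpin PEDF (1264, 1134, 1023 and 1178 CPM), and Mmp14, a membrane-bound collagenase (583, 619, 556 and 490.4 CPM). Ribosomal protein genes summed to 16075, 15432, 30082 and 43256 CPM, with only 9 of 85 within 2-fold. Near-identical copies make single ribosomal protein values uncertain.

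Papilla identity was checked with a list of 38 genes. In each library 10 CPM was reached by 26 of them, and 32 reached it in at least 1. The summed level of the list was 9873, 6308, 7552 and 11767 CPM, lowest in Sham 2 and highest in Control 2, so the groups overlapped. By median TPM, and after Crabp1, the leading members were Enpp2, Bmp4, Spon1, Wif1, Fgf7 and Pappa2. Enpp2 encodes autotaxin, which makes the lipid signal lysophosphatidic acid, and it was at 1104, 947, 994 and 1325 CPM. Bmp4, a BMP ligand that restrains follicle growth between cycles, was at 837, 475, 296 and 623 CPM. Spon1, a secreted matrix protein, was at 1247, 650.0, 1103 and 1806 CPM. Wif1, a secreted WNT inhibitor, was at 276, 206, 505 and 662 CPM, higher in both Control libraries than in either Sham library.

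The median ratio of highest to lowest library was 2.51 for the 26 identity genes, against 1.75 over all genes with at least 10 CPM in each. Of all such genes, 65.8% stayed within 2-fold in all 4 libraries, and 10 of the 26 did (38.5%). They were the transcription factor genes Sox18 (20.4, 15.8, 20.9 and 26.3 CPM), Alx4 (119, 71.1, 107 and 119.8) and Foxd1 (17.4, 16.1, 16.6 and 13.6), the R-spondins Rspo1 (137, 135, 88.7 and 106) and Rspo3 (67.1, 56.9, 61.6 and 92.4), which amplify WNT signalling, the hedgehog decoy Hhip (74.8, 53.5, 51.7 and 61.8), and Enpp2, Scube3 (50.1, 31.7, 29.6 and 29.1), Ncam1 (152, 138, 185 and 194) and Pappa2 (780.4, 544, 655 and 763). Foxd1 had the smallest ratio of these at 1.28. Other members were present but less even. Fgf7 and Fgf10, ligands that act on epithelial FGF receptors, were both uneven. Fgf7 was at 297, 161, 132 and 248 CPM and Fgf10 at 181, 107, 163 and 261 CPM. Lef1, a nuclear partner of beta-catenin, was at 122.9, 83.2, 289.8 and 380.2 CPM, a ratio of 4.57, with no overlap between groups (log2 difference 1.70, 95% interval 0.77 to 2.63, adjusted p = 0.0602 in edgeR's quasi-likelihood test). Vcan, a large proteoglycan of the papilla matrix, was at 120.3, 80.8, 152 and 259.9 CPM. Trps1, a zinc finger repressor, was at 483, 382, 176 and 367 CPM, with Control 1 the lowest.

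Several of the most used markers were low in CPM in these libraries. Sox2, which marks the papillae of some follicle types, was at 7.23, 9.42, 4.02 and 6.23 CPM. Alpl, an alkaline phosphatase, was at 24.5, 10.3, 22.8 and 7.44 CPM. Corin, a membrane protease, was at 10.3, 9.66, 23.7 and 27.8 CPM. Nog, a BMP antagonist, was at 0.261, 5.64, 1.18 and 1.12 CPM, where the limit of 3 reads is 0.236 to 0.279 CPM. Prom1, Ngfr and Hey1 also stayed under 10 CPM in every library. In bulk libraries, fewer cells of a type and less RNA per cell cannot be told apart. None of the 38 passed the threshold between Control and Sham libraries in edgeR (adjusted p under 0.05, a call made for 3.01% of the 23463 genes tested). Other settings called some as higher in Control: 7 with no filter on low counts, 4 in DESeq2 and 1 in a fit of the 4 libraries alone. Their median log2 difference was 0.22, against -0.35 over all genes.

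**Figure D2:**
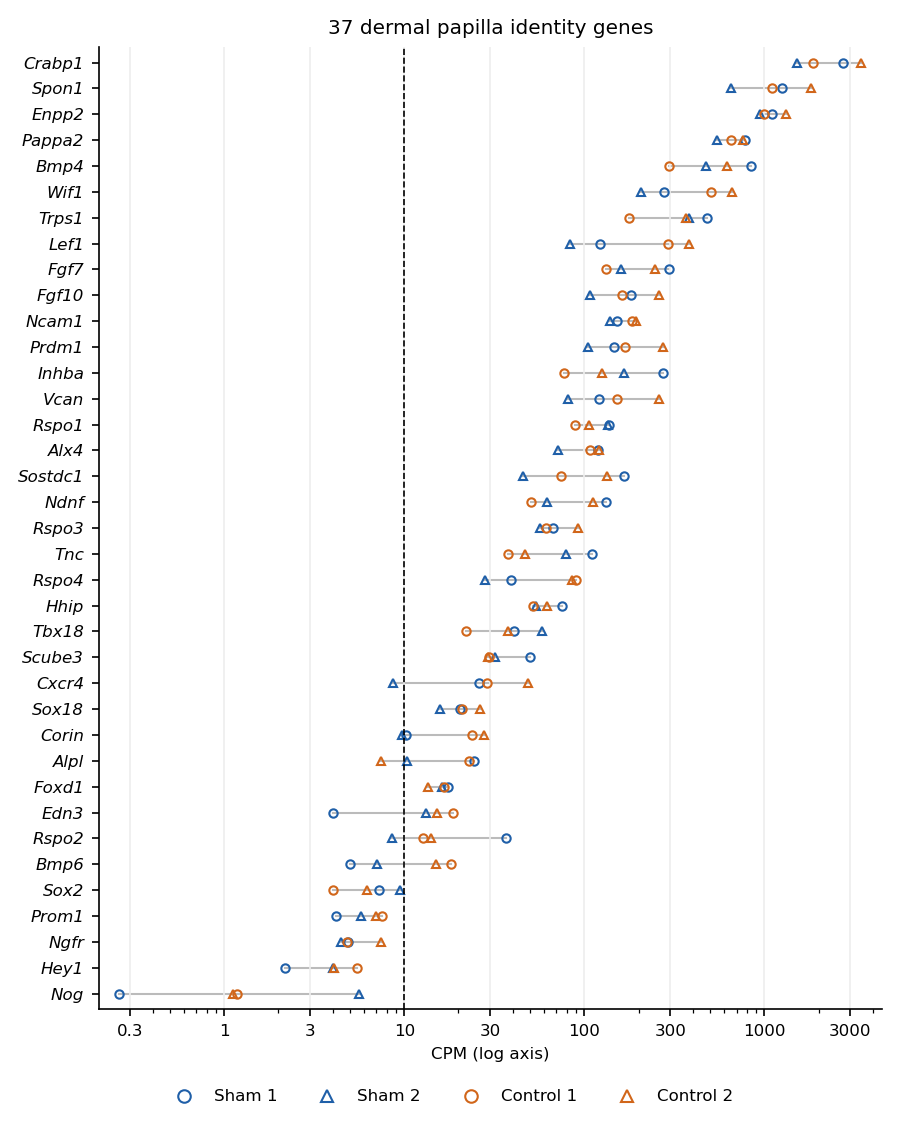
CPM (log axis) of 37 of the 38 dermal papilla identity genes in each library, ordered by median, with the dashed line at 10 CPM. CPM depends on transcript length, so the order is not one of level per length. Foxd1 and Rspo3 are among the 10 within 2-fold, and Sox2, Prom1, Ngfr, Hey1 and Nog lie under the line.

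Agreement was then counted over 3 classes of regulatory genes. A gene was taken to be at similar level when it had at least 10 CPM in each of the 4 libraries and its highest library was at most 2 times its lowest. This held for 5889 of the 8949 genes with at least 10 CPM in each library, or 65.8%. Transcription factors came nearest to that share, with 172 of 290 (59.3%) and a median ratio of 1.87, against 1.75 over all genes. Receptors followed with 90 of 171 (52.6%) and a median ratio of 1.96. Secreted factors were lowest, with 43 of 114 (37.7%) and a median ratio of 2.42. The order depended on level: among genes with a geometric mean of 100 to 300 CPM, 70.7% of all genes, 72.97% of receptors, 59.3% of transcription factors and 39.4% of secreted factors were at similar level. A ratio over 4 was found for 13.2% of secreted factors, 8.77% of receptors, 9.31% of transcription factors and 3.82% of all genes. Just inside the limit of 2 lay Cntfr and Lpar1 (both 1.99), and just outside it Plxnd1 (2.00) and Bcl6 (2.01).

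A small ratio over 4 libraries is not an upper limit on the difference between groups. Counted instead by the 95% interval of the Control minus Sham difference in edgeR, 2744 genes (11.7% of those tested) lay within 2-fold in both directions. They included 12 of 275 secreted factors, 37 of 427 receptors and 70 of 526 transcription factors. For the remaining genes these libraries cannot place the group difference within 2-fold.

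**Figure D3:**
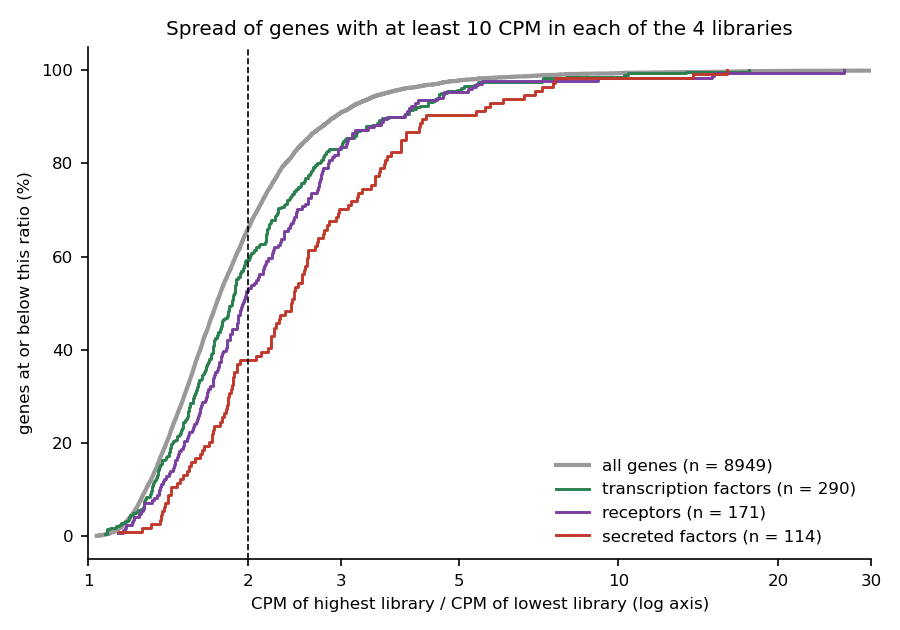
Cumulative share of genes (percent) against the ratio of the highest to the lowest library (log axis, drawn to 30), for genes with at least 10 CPM in each of the 4 libraries. At the dashed line of 2 the curves stand at 65.8% for all genes, 59.3% for transcription factors, 52.6% for receptors and 37.7% for secreted factors.

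Among secreted factors at similar level, Ccn1 had the highest median TPM (747). It encodes a matricellular protein that binds integrins, and it was at 801, 1009, 998 and 1473 CPM. Ccn1 is also in the immediate early and stress list. Of the 20 genes of that list with at least 10 CPM in each library, 3 were at similar level. Igfbp6, a binding protein that prefers IGF2, came second at 677 TPM and 602, 687, 406 and 471 CPM. Enpp2 followed at 631 TPM. Dkk2, an antagonist of the WNT co-receptors, was next at 566 TPM. It was at 1798 CPM in Sham 1, 1225 in Sham 2, 1038 in Control 1 and 1770.3 in Control 2, so each group held 1 high and 1 low library. The Control minus Sham log2 difference of Dkk2 was -0.11, with a 95% interval of -0.97 to 0.76. Next came Igfbp4, a further IGF binding protein, at 677, 371, 604 and 472 CPM. Nbl1, a secreted BMP antagonist of the DAN family, was at 604, 489, 474 and 435 CPM, with a ratio of 1.39.

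The rest of the leading 12 were the eosinophil chemokine Ccl11 (320.0, 252, 216 and 212 CPM), the secretory stress factor Manf (139, 149.7, 87.2 and 136), the enkephalin precursor Penk (186, 244, 136 and 197), the cytokine Mif (73.6, 65.9, 104 and 105), the matricellular protein Smoc2 (737, 381, 432 and 471) and Ltbp4, which holds latent TGF-beta in the matrix (227, 276, 389 and 316). Of the 12, Mif and Ltbp4 had both Control libraries above both Sham libraries, Igfbp6, Nbl1, Ccl11 and Manf had both below, and the other 6 overlapped. Over all 5889 genes at similar level the libraries of both groups did not overlap for 47%. Penk left the 2-fold limit when plain library totals were used for scaling (ratio 2.05). None of the 12 passed the threshold between groups in edgeR, with adjusted p of 0.269 for Igfbp6, 0.217 for Mif and 0.281 for Ltbp4. The 12 were chosen for a ratio of at most 2 in these same libraries, which limits any group difference. The lack of calls is therefore no evidence that the groups agree.

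Promoter sequence was read for this group to show what lies just before these genes at similar level. RefSeq promoters (GRCm38.p6) matched 7 of the 12 by symbol. The letters TATAAA, in the direction of the gene and within 50 to 16 bases before the start, stood in 3 of the 7 and in 692 of all 27025 promoters of the table (2.56%). The 100 bases before the start are shown 5′ to 3′ for these 3, with TATAAA in capitals, and for 2 without it. Ltbp4 and Mif also lacked it and are not shown.
Ccn1 (chr3:145649986-145650085, minus strand): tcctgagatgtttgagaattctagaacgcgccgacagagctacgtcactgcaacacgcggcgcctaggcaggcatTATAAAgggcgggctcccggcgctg
Dkk2 (chr3:132085192-132085291, plus strand): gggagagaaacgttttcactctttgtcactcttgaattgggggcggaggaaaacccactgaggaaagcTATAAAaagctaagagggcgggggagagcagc
Igfbp4 (chr11:99041144-99041243, plus strand): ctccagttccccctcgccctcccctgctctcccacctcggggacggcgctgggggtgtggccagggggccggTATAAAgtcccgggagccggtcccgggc
Igfbp6 (chr15:102144086-102144185, plus strand): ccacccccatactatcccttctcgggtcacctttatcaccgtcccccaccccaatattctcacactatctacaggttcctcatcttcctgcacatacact
Nbl1 (chr4:139092971-139093070, minus strand): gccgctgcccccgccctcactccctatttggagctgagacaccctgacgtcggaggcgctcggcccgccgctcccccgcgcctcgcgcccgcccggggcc
TATAAA began 25 bases before the start in Ccn1, 32 in Dkk2 and 28 in Igfbp4. A match of letters is a description of the window and not of a binding factor. With 7 of 12 genes matched, no share is given for the group, and a difference from all promoters was not tested.

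By pathway, WNT genes showed both arms. The WNT inhibitors with the highest levels per length were Notum (668 TPM), an enzyme that removes the lipid from WNT proteins, and Dkk2. Notum was at 1538, 423, 571 and 818 CPM, with Sham 1 the highest and a ratio of 3.64, so it was present in all 4 libraries but not at similar level. Of 9 WNT inhibitors with at least 10 CPM in each library, 4 were at similar level, Dkk2, Sfrp1 (119, 124.1, 83.2 and 116 CPM), Dkk3 (86.8, 55.3, 48.0 and 53.4) and Frzb (42.2, 25.5, 29.8 and 36.8). Of 8 WNT ligands and R-spondins, 3 were, Rspo1, Rspo3 and Wnt5a (100.4, 95.3, 64.8 and 95.8 CPM), a ligand of the beta-catenin-independent pathway. Wnt10a, a ligand of the beta-catenin pathway, was at 154, 74.2, 136 and 181 CPM, lowest in Sham 2.

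TGF-beta family ligands at similar level were Tgfb2 (161, 110.2, 165 and 201.2 CPM), Bmp2 (103, 65.8, 84.6 and 90.5), Bmp3 (22.5, 20.9, 22.6 and 23.9) and Lefty1 (21.5, 15.2, 18.7 and 20.1), 4 of 11. Bmp4, the most abundant of this list in TPM, had a ratio of 2.83, and Bmp7 (378, 179, 243 and 320.2 CPM) one of 2.12. Of the antagonists and carriers of the family, 7 of 11 were at similar level. FGF family genes at similar level were Fgf2 (47.5, 51.1, 44.6 and 58.7 CPM) and Fgf13 (22.3, 16.9, 31.7 and 21.2), 2 of 5. Fgf13 encodes an intracellular family member and not a secreted ligand, and was counted among secreted factors by its symbol alone. Among vascular factors, 5 of 11 were at similar level: Vegfa (164, 90.2, 96.4 and 172 CPM), Vegfb (33.7, 27.7, 26.2 and 43.0), Vegfc (41.5, 22.5, 29.2 and 37.2), Angptl2 (222, 176, 162 and 157) and Angpt1 (40.3, 42.0, 33.2 and 36.3). Of 17 chemokines and cytokines 5 were, among them Cxcl12, a chemokine of stromal niches, at 121, 232, 207 and 130.4 CPM. Gas6, which the title of the series names, encodes a ligand of the TAM receptor kinases and was at 139, 158, 299 and 356.1 CPM. Both Control libraries lay above both Sham libraries, with a ratio of 2.56, a log2 difference of 1.14 (95% interval 0.31 to 1.97) and an adjusted p of 0.125 in edgeR (0.019 in DESeq2). Pros1, which encodes the other ligand of these receptors, was at 175, 253, 212 and 172 CPM and at similar level (ratio 1.47).

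Within the class of secreted factors, which does not hold Apod or Dcn, Igfbp7 was the most abundant in TPM after Igfbp3. It was at 1432, 1150.1, 2546 and 1766 CPM, a ratio of 2.21. The most abundant with a ratio over 4 was Postn, encoding the matricellular protein periostin. It was at 2426 CPM in Sham 1, 4273 in Sham 2, 267 in Control 1 and 411 in Control 2, so both Sham libraries lay far above both Control libraries (log2 difference -3.31 ± 0.43 SE, adjusted p = 0.0155 in edgeR). Spp1, osteopontin, was at 871, 131, 189 and 216 CPM, with Sham 1 alone high. Sfrp2, a WNT inhibitor, was at 306, 291, 44.0 and 72.9 CPM and lower in Control (log2 difference -2.35 ± 0.43 SE, adjusted p = 0.025 in edgeR). In all, 9 of 275 secreted factors passed the threshold, 4 higher and 5 lower in Control (3.01% over all genes). Without Sham 2, none passed.

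**Figure D4:**
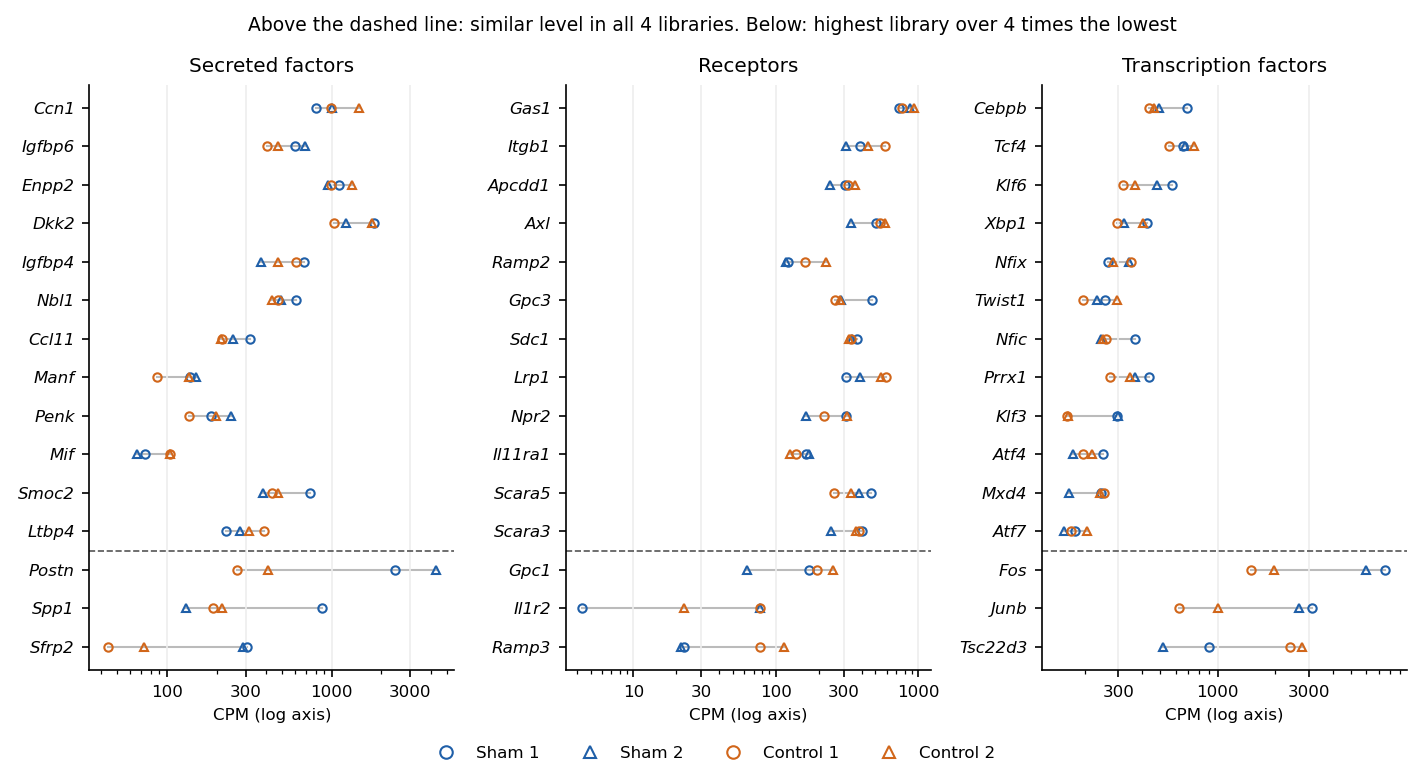
CPM (log axis, separate range in each panel) of the 12 most abundant secreted factors, receptors and transcription factors at similar level, ordered by median TPM, and below the dashed line the 3 most abundant whose highest library was over 4 times the lowest. Gas1 and Sdc1 are the tightest of the 12 receptors drawn above the line, and Postn, Fos and Junb are high in both Sham libraries.

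Receptors at similar level were led per length by Gas1 (385 TPM), a co-receptor for hedgehog proteins. Its level was 737 CPM in Sham 1, 873 in Sham 2, 769 in Control 1 and 938 in Control 2, a ratio of 1.27, with the 2 groups overlapping and a Control minus Sham log2 difference of 0.09 (95% interval -0.62 to 0.79). Itgb1, the beta chain shared by many matrix-binding integrins, was at 391.9, 313, 584 and 446 CPM. Apcdd1, a membrane inhibitor of WNT signalling, was at 307, 238, 323 and 359 CPM. Axl, a TAM receptor kinase activated by GAS6, was at 505, 334, 542 and 586 CPM and lowest in Sham 2. In all 3 of these, both Control libraries lay above both Sham libraries. Over all 5889 genes at similar level, the 2 groups did not overlap, in either direction, for 47%.

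The heparan sulphate proteoglycan Sdc1 had the smallest ratio of the 12 leading receptors, 1.14, at 371, 339.7, 337 and 326 CPM. Gpc3, a glypican, was at 474, 288, 259 and 284 CPM, and its 3 libraries other than Sham 1 lay close together. Lrp1, an endocytic receptor, was at 308, 388, 597 and 543 CPM, and Ramp2, the partner of the calcitonin receptor-like receptor, at 121, 117, 160.5 and 225 CPM. Both were higher in each Control than in each Sham library, beside the 47% of genes at similar level whose groups did not overlap. The other 4 were Npr2, the receptor of C-type natriuretic peptide (311, 162, 217 and 317 CPM), Il11ra1, the interleukin 11 receptor (162, 172, 139 and 125), and the scavenger receptors Scara5 (466, 384, 256 and 337) and Scara3 (405, 242, 381 and 363). Under median-of-ratios scaling Itgb1, Lrp1, Npr2 and Ramp2 left the 2-fold limit, with ratios of 2.04 to 2.10. None of the 12 passed the threshold between groups, with adjusted p of 0.152 for Lrp1 and 0.26 for Ramp2 in edgeR. As the 12 were chosen by the 2-fold limit in the same libraries, this does not show that the groups agree.

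Of the TGF-beta family receptors, 9 of 12 were at similar level, near the 65.8% of all genes. They included Tgfbr2 (228, 223, 294 and 384 CPM), Tgfbr3 (169, 159.9, 201.1 and 276), Bmpr1a (174, 98.6, 105 and 103) and Bmpr2 (107, 64.3, 62.2 and 83.6). WNT receptors and co-receptors were at similar level in 9 of 14, receptor tyrosine kinases in 9 of 17, matrix and uptake receptors in 20 of 35, cytokine and TNF receptors in 15 of 28, ephrin, semaphorin, slit and netrin receptors in 6 of 13, hedgehog and Notch receptors in 3 of 7, and G-protein coupled receptors and their partners in 21 of 47. Insr, the insulin receptor, was at 51.5, 62.6, 60.6 and 60.8 CPM. Igf1r, which receives the IGFs, was at 209, 174, 129 and 152 CPM. Smo, the hedgehog signal transducer, was at 69.7, 69.4, 101 and 96.5 CPM. Ptger3, a prostaglandin E2 receptor, was at 109, 95.7, 97.3 and 122 CPM.

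Abundant receptors outside the rule were present in every library. Fgfr1, which receives FGF signals in mesenchyme, was at 1384, 659, 527 and 549 CPM, with Sham 1 above the other 3. Prlr, the prolactin receptor, was at 1144, 647, 339.8 and 795 CPM, and Lepr, the leptin receptor, at 576, 354, 612 and 962 CPM. Pdgfra, the mesenchymal PDGF receptor, was at 301, 309, 530.2 and 705 CPM, higher in both Control libraries (log2 difference 1.02, 95% interval 0.24 to 1.80, adjusted p = 0.14 in edgeR). Of the 3 most abundant receptors with a ratio over 4, Gpc1 (171, 62.3, 195 and 251 CPM) was low in Sham 2 and Il1r2 (4.36, 76.9, 77.9 and 22.6 CPM) was low in Sham 1. Ramp3, a relative of Ramp2, was at 22.5, 21.7, 77.9 and 113 CPM and rose in Control (log2 difference 2.11 ± 0.35 SE, adjusted p = 0.0217 in edgeR). In all, 8 of 427 receptors passed the threshold (3.01% over all genes), 5 higher and 3 lower in Control. The WNT-linked receptor Lgr6 (34.7, 18.8, 166 and 283 CPM) and the TAM kinase Mertk (15.6, 17.0, 49.97 and 73.1 CPM) were among those higher. Without Sham 2, none of the class passed.

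Transcription factors at similar level were led per length by Cebpb (467 TPM), a leucine zipper factor of the stress and adipogenic response, at 692, 494, 435 and 462 CPM. Tcf4, a basic helix-loop-helix E protein, was at 656 CPM in Sham 1, 675 in Sham 2, 553 in Control 1 and 754 in Control 2, a ratio of 1.36. Its Control minus Sham log2 difference was -0.03 (95% interval -0.85 to 0.80). Klf6, a zinc finger factor, was at 577, 479, 319 and 367 CPM, lower in both Control libraries. Xbp1, a regulator of the secretory pathway, was at 424, 320.2, 298 and 406 CPM. Nfix, a nuclear factor I protein, had the smallest ratio of the leading 12 (1.31) at 265, 342, 348 and 283 CPM, and its relative Nfic was at 368, 245, 259.8 and 248.9 CPM.

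The list of leading transcription factors, all chosen for a ratio of at most 2, included the classical mesenchymal factors Twist1 and Prrx1. Their evenness therefore follows from that choice. Twist1 was at 256, 233, 195 and 295 CPM (ratio 1.51) and Prrx1 at 436, 368, 271 and 347 CPM (ratio 1.61). The remaining members were the repressor Klf3 (295, 299, 162 and 164 CPM), the integrated stress response factor Atf4 (250.02, 175, 197 and 219.6), the MAX partner Mxd4 (243, 167, 252 and 239.9) and Atf7 (179, 156, 171 and 207). Klf3 was split by group, with both Sham libraries near 1 value and both Control libraries near another. Its log2 difference was -0.86 (95% interval -1.40 to -0.32), and its adjusted p of 0.0893 in edgeR missed the threshold. With plain library totals its ratio was 2.21.

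By family, 40 of 59 STAT, IRF, NF-kB, SMAD, ETS, MEF2 and related factors were at similar level, 31 of 49 KLF, EGR, SP and related zinc finger factors, 21 of 35 basic helix-loop-helix factors, 12 of 20 SOX, FOX and TCF factors, 19 of 33 homeobox factors, 21 of 37 leucine zipper factors, 17 of 34 T-box, RUNX, GATA, EBF, NFI, TFAP2 and related factors and 11 of 23 nuclear receptors. Thra, a thyroid hormone receptor, was at 152, 159.8, 148 and 156 CPM, a ratio of 1.08. Nr3c1, encoding the glucocorticoid receptor, was at 671, 365, 671 and 978 CPM. It was present in all 4 libraries with a ratio of 2.68, the lowest value being in Sham 2, and a log2 difference of 0.67 (95% interval -0.13 to 1.47, adjusted p = 0.282 in edgeR). Single factors at similar level included Tfap2c (185, 149, 150.1 and 205 CPM), Ebf1 (214, 195, 194 and 172), Tbx15 (101, 115, 125 and 152) and Foxo1 (78.8, 82.4, 90.6 and 94.1).

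The transcription factors with the highest CPM were not at similar level. All 5 with a geometric mean of at least 1000 CPM had ratios over 2: Fos, Jun (3714, 3106, 682 and 1132 CPM), Junb (3115, 2658, 629 and 1007 CPM), Egr1 (2661, 2419.5, 958 and 1254 CPM) and Tsc22d3 (897, 515, 2381 and 2754 CPM). The first 4 are immediate early genes and were higher in both Sham libraries. Tsc22d3, also known as GILZ and a classical target of the glucocorticoid receptor, was higher in both Control libraries (log2 difference 1.86 ± 0.38 SE, adjusted p = 0.0318 in edgeR). Fos and Junb passed the threshold as lower in Control (log2 differences -1.96 and -1.82, adjusted p = 0.0201 and 0.0242 in edgeR). Egr1 did not (-1.20, adjusted p = 0.0631 in edgeR). In all, 12 of 526 transcription factors passed (3.01% over all genes), 3 higher and 9 lower in Control. Without Sham 2, none passed.

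Over all genes, 706 of 23463 passed the threshold between Control and Sham (3.01%), of which 227 were higher (0.967%) and 479 lower (2.04%) in Control, and 5343 had an unadjusted p under 0.05. The count depended on single libraries: it was 15 without Sham 2, 93 without Control 1, 174 without Control 2 and 1519 without Sham 1. The median log2 difference over all genes was -0.35, and -0.24 under median-of-ratios scaling. Only Ap1s3, Scnn1g and mt-Rnr1, of 38 called genes followed across settings, passed without Sham 2. Scnn1g, which encodes a sodium channel subunit, had 0 and 1 reads in Sham and was at 17.7 and 26.8 CPM in Control. Klk1b21, Npcd and Ugt1a6b had no read in either Sham library and were at 22.9 and 3.16, 8.04 and 4.65, and 15.8 and 7.34 CPM in Control. P2rx1, an ATP-gated channel, had 0 and 2 reads in Sham and was at 106.8 and 21.0 CPM in Control. Ap1s3, an adaptor protein subunit, was at 23.2, 120.5, 0.473 and 1.12 CPM, and the olfactory and vomeronasal receptor genes Olfr613, Olfr656, Olfr967 and Vmn1r174 were at 10.3 to 14.2 CPM in Sham 2 except Olfr967 (9.02), at 1.92 to 3.92 in Sham 1 and at most 0.158 in Control.

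The immediate early and stress list of 21 genes had 2 higher and 9 lower in Control (0.967% and 2.04% over all genes), with a median log2 difference of -1.26. It had 0 higher and 2 lower in a fit of the 4 libraries alone, 2 higher and 0 lower without Control 1, 0 higher and 3 lower without Control 2, and 0 higher and 8 lower without Sham 1. Its summed level was 27796, 24413, 12300.0 and 26869.7 CPM. Fosb was at 465, 825, 46.7 and 88.8 CPM and Nr4a1 at 576, 717, 199.9 and 223 CPM, both lower in Control. Heat shock gene Hspa1a, at 783, 402, 2266 and 6772 CPM, was higher, and Control 2 held the highest value. Ribosomal protein genes had 34 of 85 higher and 0 lower, with a median log2 difference of 1.28. They had 17 higher without Sham 1, 19 without Control 1 and 3 without Control 2, of 87 tested. Without Sham 2, no gene of either list passed.

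Markers of other skin cells were read in the same libraries. General mesenchyme markers summed to 36984, 42229, 32349.8 and 22448 CPM, and 8 of 13 were at similar level. Dermal fibroblast and preadipocyte markers summed to 6519, 7394, 8151 and 5565 CPM, of which Gsn gave the most, and 3 of 10 were at similar level. Within that list Dpt was at 297, 668, 294 and 260.4 CPM, Ly6a at 31.6, 323.8, 239 and 67.7 CPM and Clec3b at 77.4, 301.1, 52.96 and 14.4 CPM, all highest in Sham 2. Smooth muscle, pericyte and dermal sheath markers summed to 566, 638, 12321 and 3445 CPM and were higher in both Control libraries, most in Control 1. Acta2, smooth muscle actin, was at 103, 133, 4927 and 1176 CPM, and Myl9, a myosin light chain, at 149, 156, 2493 and 711 CPM. In this list 6 of 13 passed the threshold as higher in Control in edgeR (0.967% over all genes), 0 were lower, with a median log2 difference of 4.43, and none was at similar level. The count fell when Sham 1, Sham 2 or Control 1 was left out and rose without Control 2. The median log2 difference was 3.91 without Sham 1, 5.08 without Sham 2, 3.17 without Control 1 and 5.35 without Control 2. All 13 were called higher in DESeq2 and with no filter on low counts, and 4 in a fit of the 4 libraries alone.

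Epidermal differentiation markers summed to 1055, 4076, 703 and 674 CPM and were highest in Sham 2. Krt10, a suprabasal keratin, was at 489, 1996, 129 and 191 CPM, and Krtdap at 214, 879, 205 and 288 CPM. Basal and follicle keratinocyte markers summed to 856, 869, 1310.1 and 649 CPM. Its members did not move together: Krt17 was at 36.6, 60.6, 612 and 109 CPM, highest in Control 1, while Krt5 (46.0, 117, 69.3 and 18.5 CPM), Krt15 (44.4, 261, 97.6 and 21.2), Trp63 and Cdh1 were highest in Sham 2. Cd200 gave 515, 153, 269.7 and 364 CPM of the sum. Sebaceous gland markers summed to 579, 466, 479 and 508 CPM. Immune markers summed to 252, 337, 409 and 205 CPM, led by Cd74 (110.3, 123.4, 157 and 84.3) and Lyz2 (82.1, 99.3, 122 and 62.8). Endothelial, melanocyte, Schwann cell and hair shaft lists each summed to at most 152 CPM, and Krt31, Krt71 and Krt27, keratins of hair shaft and inner sheath, had no read in any of the 4 libraries. The erythrocyte list summed to 12.5, 156, 60.4 and 65.2 CPM and the skeletal muscle list to 8.28, 28.2, 463 and 107 CPM. Des, which is also in the smooth muscle list, gave most of the latter in Control, and the other 7 skeletal muscle markers summed to 3.57, 23.1, 37.7 and 17.0 CPM. Cell cycle genes summed to 118, 131, 134.2 and 103 CPM. The part of these cells in the spread of the classes above was not tested.

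**Figure D5:**
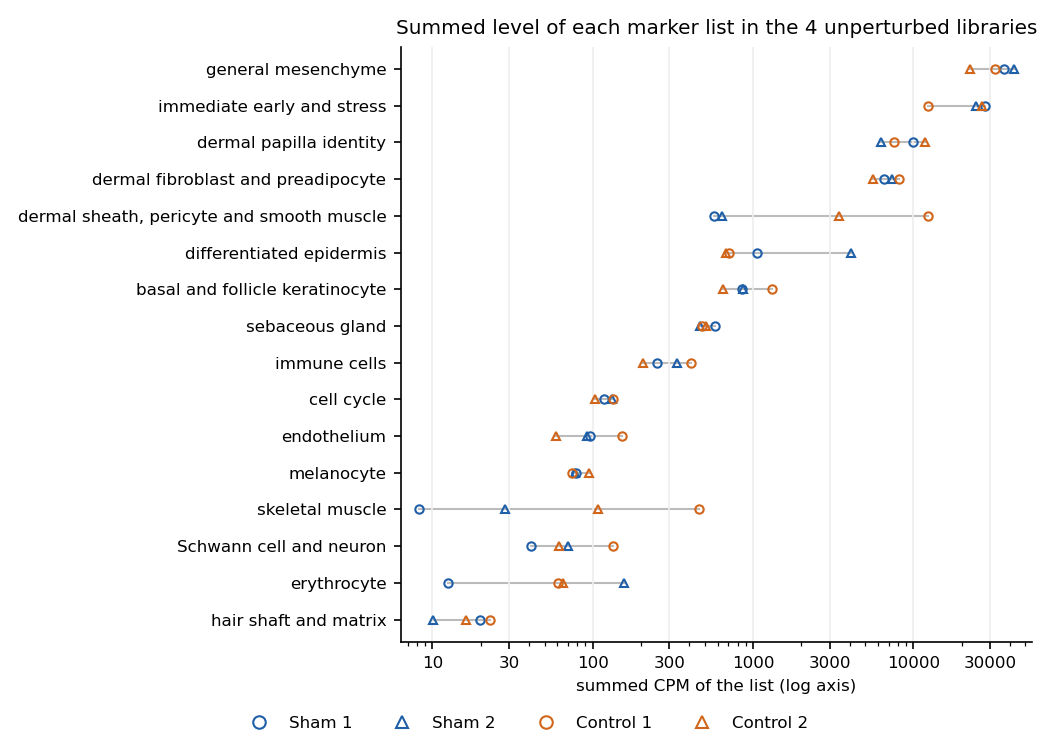
Summed CPM (log axis) of each list of marker genes in each library, ordered by median, with 1 open symbol per library. Smooth muscle markers are higher in both Control libraries, and differentiated epidermis is highest in Sham 2.

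The leading transcript was compared between libraries. Among 5350 genes at similar level with several annotated transcripts, the same transcript led in all 4 libraries in 3802 (71.1%). The share was 192 of 257 (74.7%) among genes with a ratio over 4. For secreted factors this held in 31 of 33, for receptors in 60 of 79 and for transcription factors in 112 of 153. It held in 19 of 21 papilla identity genes with at least 10 CPM in each library. Enpp2-201 held 72.3, 72.2, 65.3 and 71.9 percent of Enpp2, and Fgf7-202 held 54.6, 63.1, 55.4 and 56.4 percent of Fgf7. Inhba, encoding an activin subunit, was as steady, with Inhba-202 at 61.2, 58.1, 64.3 and 60.9 percent. Lef1 and Tnc were the exceptions: Lef1-201 held 27.6, 0, 76.1 and 88.0 percent and Tnc-204, of the matrix gene tenascin C, 11.1, 23.9, 94.8 and 95.5 percent, higher in both Control libraries. These shares come from the authors' assignment of reads to overlapping transcripts, whose error is not in the files, and reads of antisense genes cannot be told apart.

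The other 4 dermal papilla libraries, from adrenalectomised mice and from mice with the glucocorticoid receptor deleted, were set beside the baseline. Of the 5889 genes at similar level, 87.7% and 89.4% lay within 2-fold of the baseline median in the 2 adrenalectomy libraries, and 87.0% and 90.4% in the 2 libraries from Pdgfra-CreER; GR fl/fl mice given tamoxifen. In the same order, the shares were 65.1%, 76.7%, 60.5% and 72.1% for secreted factors and 74.4%, 77.8%, 65.6% and 73.3% for receptors. For transcription factors they were 84.3%, 83.7%, 77.3% and 81.4%. All 8 libraries kept 1985 of the 5889 genes (33.7%) within 2-fold of one another. These included 45 of 172 transcription factors (26.2%), 11 of 90 receptors (12.2%) and 4 of 43 secreted factors (9.30%). The 4 secreted factors were Nbl1, Manf, Mif and Il33. The transcription factors with the highest levels per length in this set were Xbp1, Nfic, Prrx1, Klf3, Atf4 and Atf7. Scara3 was the receptor with the highest level. The baseline libraries served to choose these genes, and no test was made.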

How the data were processed

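Dermal papilla cells purified by FACS gave RNA that was made into cDNA with SMART-Seq v4 and into libraries with Nextera XT, per the labels' protocols. The authors deposited expected counts, estimated reads per transcript that need not be whole, with 1 file per library. Salmon, DESeq2 1.22.2 and the mm10 build are named in the submitters' processing notes. The kit does not mark strand, so overlapping and antisense genes cannot be separated, and near-identical copies may share reads. There are no molecular identifiers, so read floors and counting errors cover counting error only.

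Of 134967 transcripts, 134817 were matched to GRCm38 annotation and summed to 52958 gene symbols, 102 of which held several gene IDs. Sums were rounded to whole counts. CPM used library totals scaled by TMM, and TPM used annotated transcript lengths. Differences were Control minus Sham in edgeR 4.0.16 (quasi-likelihood, R 4.3.3), fitted over all 8 dermal papilla libraries with no block and Benjamini-Hochberg adjusted over 23463 genes. The fit was checked on simulated data. DESeq2 1.42.0, other scalings and filters, a replicate block and leaving out each library were alternatives. Replicate numbers were not used to pair the samples in the main fit.

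Genes were named by rule: the 20 most abundant, the 12 most abundant at similar level and the 3 with a ratio over 4 in each class, papilla identity genes, the 2 leading markers of other cell types, Nr3c1, Gas6 and up to 5 called genes per direction. A further 79 genes were chosen after their values were seen. The classes, lists and libraries were chosen with earlier results of these data known. The 10 hair follicle stem cell libraries were not used here. Results for 2 genes are not reported here.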

Additional observations from a re-analysis of the deposited data

How the results depend on the processing

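With a limit of 1.5 in place of 2, 2536 genes were at similar level, among them 14 secreted factors, 32 receptors and 64 transcription factors. With a limit of 3 there were 80 secreted factors and 143 receptors. Leaving out 1 library in turn, which compares 3 libraries in place of 4, gave 6607 to 7621 genes, 56 to 65 secreted factors (65 without Sham 2), 109 to 119 receptors, 192 to 223 transcription factors and 60 to 71 of the genes named by rule. Other scalings, and a minimum of 5 or 20 CPM, kept each of these counts within 1.5 times.

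The count of genes that differed between Control and Sham was 2441 with no filter on low counts, 175 (120 higher, 55 lower) in a fit of the 4 libraries alone and 2438 (879 higher, 1559 lower) in DESeq2. It ranged from 15 to 1519 when 1 library was left out, the lowest being without Sham 2. The lone library of a group was then assumed to vary like the other groups. With the replicate block, the count was 682. The deviations of same-numbered libraries correlated at -0.04 between Sham and Control, -0.15 between Sham and adrenalectomy and 0.22 between Control and receptor deletion. These values do not settle whether the numbers pair the libraries. Of the 38 called genes followed across settings, 37 passed with the block (Irx1 did not) and all 38 passed in DESeq2. Genes with an interval within 2-fold numbered 565 to 1867 without 1 library, 1250 without Sham 1, 576 without Control 1 and 565 without Control 2. The causes were not tested. More genes were higher than lower in Control in the fit of the 4 libraries alone and without Sham 2 (9 and 6), Control 1 (72 and 21) or Control 2 (105 and 69), against 227 and 479 with all libraries. Calls in DESeq2 numbered 31 secreted factors, 43 receptors and 39 transcription factors, and 43, 52 and 48 with no filter, against 9, 8 and 12. Without Sham 2 the median log2 difference of secreted factors went from -0.28 to 0.08 and that of receptors from -0.23 to 0.15. Of the values for single genes, 126 log2 differences of called genes missed the threshold under an alternative and 216 kept it. Levels near 10 CPM rest on 108 to 127 reads.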
